A study of Mus musculus with 6 samples.

Results

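The genes described here are 42 genes of the integrated stress response and the unfolded protein response, chosen by name. They were taken from the 25032 genes of the deposited annotation that had at least 1 read in some library, and each of the 42 names matched 1 row. The rule that named them used no measured value, but the members were chosen with earlier results of these data known. The genes fall into 7 roles, namely kinases of the translation factor eIF2α, regulators of its phosphatase, stress transcription factors, ATF4 targets of amino acid and glutathione metabolism, sensors of the endoplasmic reticulum (ER) with XBP1, ER chaperones and folding enzymes, and ER-associated degradation (ERAD).

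The study sequenced polyadenylated RNA of the mouse microglial line BV2, which is immortalised, in 6 libraries. The control group was 3 libraries of cells overexpressing GFP, a fluorescent protein, and the other group was 3 libraries of cells overexpressing TDP43-NLS, which the series' design text calls TDP-43 NLSmut. TDP-43 binds RNA and is found mainly in the nucleus, and NLS stands for its nuclear localisation signal. All 6 libraries came from the same line in the same serum-containing medium. The vector, the species of the construct and the time of expression are not given in the labels used here. Nor do the labels say whether separate cultures lie behind the numbered libraries. The p-values therefore set the group difference only against the spread among these libraries, which may be technical.

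Libraries held 15062131 to 18005592 reads assigned to genes. Reads of the cells' own TDP-43 gene, Tardbp, numbered 7229, 7160 and 8154 under GFP against 5671, 6506 and 6633 under the TDP43-NLS label. Tardbp was thus lower under the overexpression label, with a log2 fold change of -0.26 ± 0.05 (SE) and 0.000291 as edgeR's adjusted p, so the count of this gene did not check the labels. All 8 microglia and macrophage markers had reads, and their summed FPKM (reads scaled by gene length and by the library's total) was 1520 to 1590 in the GFP libraries and 1370 to 1420 in the libraries labelled TDP43-NLS. The markers moved apart, since Csf1r, Cd68, Tyrobp and Spi1 fell while Itgam (2.46-fold) and the low-level Aif1 (2.85-fold) rose and the other 2 were not called. The part of these differences in the results below was not tested, and in bulk RNA fewer cells of a type and less RNA per cell cannot be told apart. Of 5 neuronal markers, Snap25, Syt1, Rbfox3 and Stmn2 had no read, and the list's sum was 2 to 9 reads against 14 to 20. Sums were 5 to 8 against 7 to 9 reads for astrocytes (Aqp4 unread), 53 to 90 against 62 to 90 for oligodendrocytes (Mog unread) and 0 to 2 in both groups for fibroblasts (Dcn and Lum unread). All 4 endothelial markers had reads, with a summed FPKM of 2.7 to 2.91 against 2.12 to 2.35. That sum was mostly Vwf, which fell, whereas Pecam1 rose 8.99-fold from 0.162 to 1.49 CPM.

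In the integrated stress response, separate kinases answer to lack of amino acids, haem deficiency, double-stranded RNA or misfolded protein in the ER, and all phosphorylate eIF2α. Most translation then falls while that of the transcription factor ATF4 rises, and ATF4 switches on genes for amino acid synthesis and uptake, for glutathione turnover and for the feedback that ends the response. The unfolded protein response is the ER's own programme: of its sensors, PERK feeds into eIF2α, whereas IRE1, through splicing of XBP1 mRNA, and ATF6 raise chaperones and the degradation machinery. In microglia, the resident macrophages of the brain, both responses have been studied in inflammatory activation and in diseases of protein aggregation.

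The ATF4 side of the set was higher in the libraries labelled TDP43-NLS, while the ER chaperones were split. Chac1 was 4.67 times, Trib3 2.87 times, Asns 1.98 times and Aldh18a1 1.81 times its GFP level. Among ER genes Herpud1, Pdia4, Dnajb9 and Pdia6 rose, whereas Dnajc3, Hyou1, Sdf2l1 and Dnajb11 fell, and the chaperones Hspa5 and Calr fell by small amounts. Levels below are CPM, a gene's reads relative to its library's TMM-scaled total, given as mean ± SD over 3 libraries, and a gene is said to have risen or fallen where its adjusted p was under 0.05 in edgeR's quasi-likelihood test over all genes.

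Of the 42 members 41 passed the filter on low counts, and 23 rose, 9 fell and 9 were not called. Over all 13199 tested genes 57.5% were called, 29.3% higher and 28.2% lower, against 78% of the tested members. The members' median log2 fold change was 0.16, and that of all tested genes was 0.00. The groups did not overlap in 32 members, beside 63.2% of all tested genes. Calls with a log2 fold change of at least 0.5 in size numbered 7 of 41 among members (17.1%), below the 24.2% of all tested genes. All 7 were higher, beside 13.9% of all tested genes called higher at that size. The 21 members of the integrated stress response (kinases, phosphatase regulators, transcription factors and ATF4 targets) gave 16 higher, 0 lower and 4 not called of 20 tested, with a median of 0.34. No member of this arm with a negative fold change had an unadjusted p under 0.05 in edgeR (0 genes), and DESeq2 called 15 higher and 0 lower. The 18 genes of ER folding and ERAD gave 6 higher, 8 lower and 4 not called, with a median of 0.00.

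**Figure D1:**
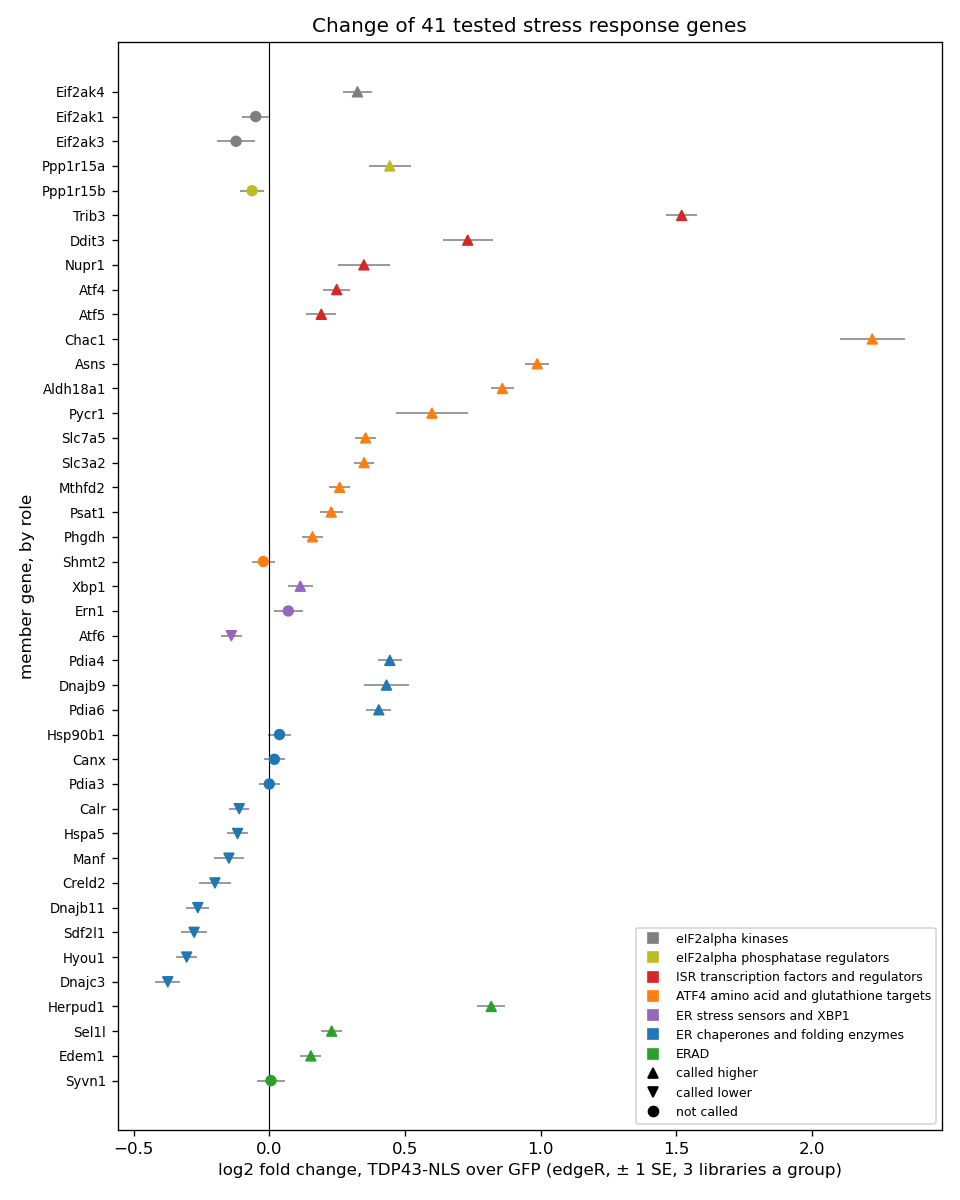
Log2 fold change of each of the 41 tested members (horizontal axis, TDP43-NLS over GFP, bars ± 1 SE, 3 libraries a group), ordered by role and coloured by it; triangles point up for higher and down for lower calls and circles were not called. Chac1 (2.22) and Trib3 (1.52) lie farthest right, and the ER chaperones run from -0.37 (Dnajc3) to 0.44 (Pdia4).

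Of the 3 eIF2α kinases, 1 rose (33.3%), beside 29.3% of all tested genes called higher. Eif2ak4 encodes GCN2, the sensor of uncharged tRNA, and lies on chromosome 2 at 118219099 to 118305715 (GRCm39). Its level was 69.7, 69.6 and 64.3 CPM in the GFP libraries and 88.6, 85.2 and 81.3 CPM in the libraries labelled TDP43-NLS. The groups did not overlap, and the log2 fold change was 0.33 ± 0.05 (SE), with an edgeR adjusted p of 0.000136. Eif2ak3, which encodes the ER sensor PERK, had 21.1, 23.6 and 24.2 CPM against 21.4, 20.6 and 21.4 CPM. Its groups overlapped, and its log2 fold change of -0.12 ± 0.07 (SE) was not called (adjusted p of 0.156 in edgeR). Eif2ak1, the haem-regulated kinase, had 48.4, 45.9 and 45.7 CPM against 43.9, 46 and 45.1 CPM, also overlapping, with a log2 fold change of -0.05 ± 0.05 (SE). Eif2ak1 shares its locus with the well-read gene Aimp2 on the other strand, and no source used here says whether reads were counted by strand.

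The phosphatase regulators differed from each other. Ppp1r15a encodes GADD34, the inducible subunit that directs dephosphorylation of eIF2α, and Ppp1r15b encodes its constitutive counterpart. Ppp1r15a stood at 26.9, 33.4 and 27.4 CPM in the GFP libraries and at 38.6, 40.7 and 40.1 CPM in the libraries labelled TDP43-NLS. Every library of the second group was above every library of the first, and Ppp1r15a rose by 0.44 ± 0.08 (SE) on the log2 scale (edgeR adjusted p of 0.000262). Ppp1r15b was 130 ± 4.34 CPM against 124 ± 2.83 CPM with overlapping groups and was not called (log2 fold change -0.06).

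All 5 transcription factors and regulators rose, with a median log2 fold change of 0.35, beside 29.3% of all tested genes called higher. Of these 5, 0 had a negative fold change with an unadjusted p under 0.05 in edgeR (DESeq2 called 4 higher and 0 lower). Atf4 (ENSMUSG00000042406, chromosome 15, 80139385 to 80141742, GRCm39), the factor at the centre of the response, had 373, 403 and 365 CPM in the GFP libraries and 476, 438 and 442 CPM in the libraries labelled TDP43-NLS. The groups were apart by a gap smaller than the spread within either, and the rise was 1.19-fold (log2 0.25 ± 0.05 SE, edgeR adjusted p of 0.000684). ATF4 is controlled largely at translation, which these mRNA counts do not measure.

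Trib3 encodes a pseudokinase that restrains ATF4 and CHOP, and lies on chromosome 2 at 152179342 to 152185952 (ENSMUSG00000032715). It had 18.6, 17.9 and 17.2 CPM in the GFP libraries and 52.2, 50.9 and 50.6 CPM in the libraries labelled TDP43-NLS. This gap was far wider than the spread in either group, at a log2 fold change of 1.52 ± 0.06 (SE) and an edgeR adjusted p of 1.6e-10, the smallest p of any member. Ddit3 (ENSMUSG00000025408, chromosome 10, 127126643 to 127132157) encodes CHOP, a factor linked to cell death under lasting stress. Its level was 10.3, 9.05 and 8.5 CPM against 14.8, 16.1 and 15.2 CPM. Ddit3 rose by 0.73 ± 0.09 (SE) on the log2 scale with no overlap (edgeR adjusted p of 1.55e-05). It overlaps Mars1, a tRNA synthetase gene on the other strand with 17786 reads over the 6 libraries, so part of its count is uncertain. Mars1 itself changed by 0.13 on the log2 scale.

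Nupr1, a small stress-induced chromatin protein, had 13.5, 11.1 and 12.4 CPM against 14.3, 17 and 15.7 CPM. Its groups came within 1 CPM of each other without overlapping, and it rose by 0.35 ± 0.10 (SE) on the log2 scale (edgeR adjusted p of 0.00685). Atf5, a relative of ATF4 that is also known for the mitochondrial stress response, had 44.4, 43.1 and 47.6 CPM against 49.7, 52 and 52.5 CPM. Atf5 rose by 0.19 ± 0.05 (SE) with no overlap (edgeR adjusted p of 0.00892), and under DESeq2 it was not called (adjusted p of 0.0505). Its locus overlaps Nup62, with 17975 reads over the 6 libraries.

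Of the 11 ATF4 targets 10 were tested, and 9 rose, 0 fell and Shmt2 was not called. Called genes made up 90% of those tested, beside 57.5% of all tested genes. The median log2 fold change was 0.35, and DESeq2 likewise called 9 higher and 0 lower (0 genes lower at an unadjusted p under 0.05 in edgeR). Chac1 (ENSMUSG00000027313, chromosome 2, 119181710 to 119184862) encodes an enzyme that cleaves glutathione. Its level was 2.38, 2.9 and 2.96 CPM in the GFP libraries and 13, 13.6 and 12.1 CPM in the libraries labelled TDP43-NLS. These values rest on 37, 49 and 52 reads against 193, 242 and 210 reads. Chac1 had the largest log2 fold change of the 41 tested members, 2.22 ± 0.12 (SE), with an edgeR adjusted p of 4.55e-09.

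Asns (ENSMUSG00000029752, chromosome 6, 7675169 to 7693254) encodes asparagine synthetase. It had 136, 146 and 137 CPM in the GFP libraries against 288, 269 and 274 CPM in the libraries labelled TDP43-NLS. No value of one group came near the other, and Asns rose by 0.99 ± 0.05 (SE) on the log2 scale (edgeR adjusted p of 1.02e-09). Aldh18a1 (ENSMUSG00000025007, chromosome 19, 40538701 to 40576907) encodes the enzyme that opens proline synthesis from glutamate. It had 130, 138 and 132 CPM against 242, 245 and 237 CPM, and rose by 0.86 ± 0.04 (SE) with an edgeR adjusted p of 1.5e-09. Pycr1 (ENSMUSG00000025140), which encodes an enzyme of the last step of proline synthesis, was read far less. Its 4.12, 4.08 and 5.08 CPM in the GFP libraries stood below 5.94, 7.3 and 6.85 CPM in the libraries labelled TDP43-NLS. Pycr1 rose by 0.60 ± 0.13 (SE) with an edgeR adjusted p of 0.00173, and it had the widest relative spread of the tested members, a coefficient of variation of 12.7% among the GFP and 10.4% among the TDP43-NLS libraries.

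The remaining targets changed less. Slc7a5 and Slc3a2 encode the light and heavy chains of LAT1, the exchanger that imports large neutral amino acids. Slc7a5 went from 331 ± 4.67 to 423 ± 10.7 CPM and Slc3a2 from 312 ± 0.922 to 397 ± 8.65 CPM. Both chains thus rose by the same log2 fold change of 0.35 ± 0.04 (SE), with edgeR adjusted p of 4.73e-06 and 4.29e-06. In the serine pathway Phgdh, the entry enzyme, went from 970 ± 34.7 to 1084 ± 20.1 CPM (log2 0.16) and Psat1, the next, from 581 ± 25.2 to 681 ± 12.4 CPM (log2 0.23). Of the mitochondrial folate enzymes Mthfd2 rose, from 214 ± 5.87 to 257 ± 2.61 CPM (log2 0.26, edgeR adjusted p of 8.42e-05). Shmt2, which feeds that pathway with serine carbon, had 556 ± 23.4 against 548 ± 17.8 CPM with overlapping groups and an edgeR adjusted p of 0.698. Cth, which encodes the cysteine-forming enzyme of transsulfuration, had 2 reads in 1 GFP library and no read in the other 5. A count of 0 in the 3 libraries labelled TDP43-NLS allows up to 0.06 CPM over the group (3 reads, counting error only), so Cth was not tested.

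**Figure D2:**
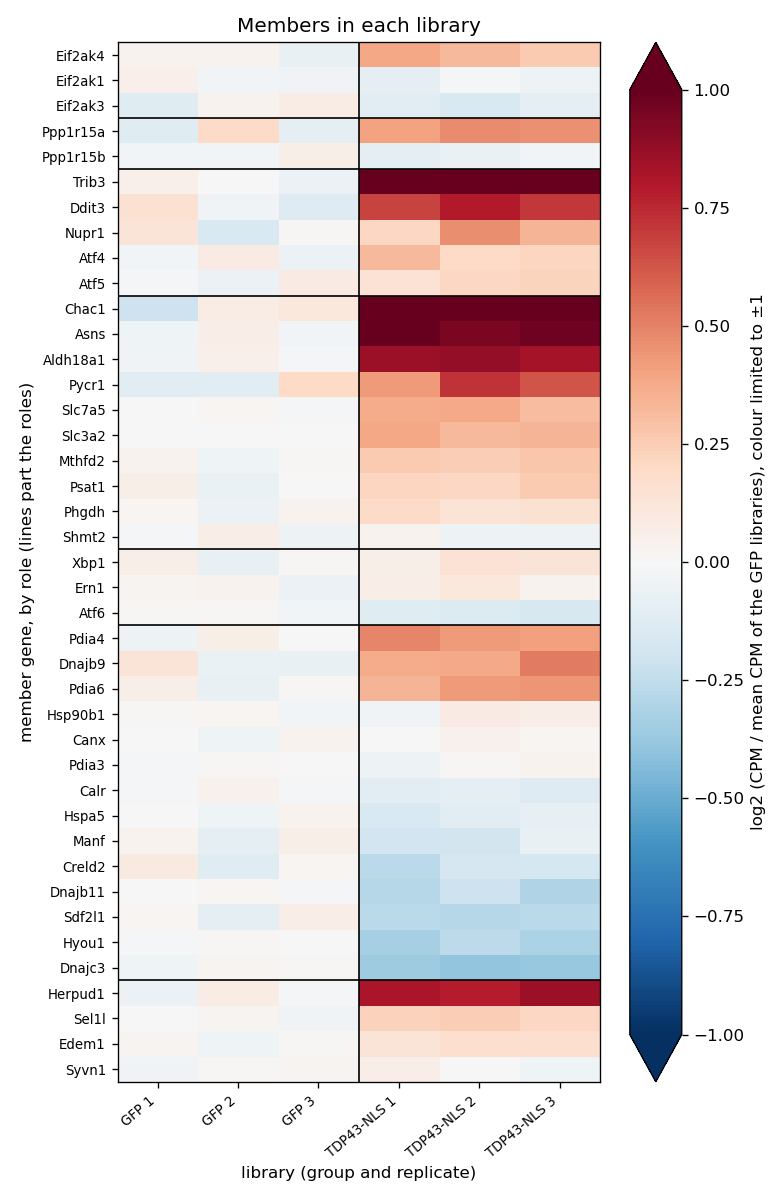
Each of the 41 tested members (rows, by role) in each of the 6 libraries (columns), as log2 of its CPM over the mean CPM of the 3 GFP libraries, red above and blue below, with colour limited to ±1. The 3 TDP43-NLS columns are alike in the rows of Trib3, Chac1, Asns, Aldh18a1 and Herpud1, and the chaperone block holds both red rows (Pdia4, Dnajb9, Pdia6) and blue rows (Dnajc3, Hyou1, Sdf2l1).

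The promoters of the members were searched for the binding motifs that textbooks tie to each arm. RefSeq's promoter table (build GRCm38.p6, 27025 genes) held a window for 36 of the 42 members, and the 250 bases before the start were searched on both strands. The core of the CCAAT/enhancer-ATF response element, TGATGNAA, was in 3.91% of all genes' windows and in 5 of 36 members, 13.9%. These were Asns, Chac1, Nupr1, Pycr1 and Herpud1, and all 5 rose, beside 29.3% of all tested genes called higher. Their sites are shown because they are what the members with the motif share, with the motif or its reverse complement in capitals and its free base in lower case. They lie at chr2:119351034-119351071 (Chac1, plus strand), chr6:7693210-7693247 (Asns, minus), chr7:126625558-126625595 (Nupr1, minus), chr11:120643829-120643866 (Pycr1, minus) and chr8:94386302-94386339 (Herpud1, plus), each written 5′ to 3′ on the gene's strand.
Chac1: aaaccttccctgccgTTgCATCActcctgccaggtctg
Asns: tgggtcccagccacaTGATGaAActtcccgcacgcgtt
Nupr1: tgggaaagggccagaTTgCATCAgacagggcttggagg
Pycr1: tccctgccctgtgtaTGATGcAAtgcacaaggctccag
Herpud1: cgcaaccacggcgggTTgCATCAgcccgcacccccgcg
A match is a description of letters and not a measured site, and members without one, such as Trib3 and Aldh18a1, rose as well. The element was described from genes such as these, so its presence here is not independent of the choice of members.

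Most ATF4 targets beyond the members rose too. In a list of 25 further textbook targets 21 were tested, and 18 rose, 1 fell and 2 were not called, with a median log2 fold change of 0.85. Called genes made up 90.5% of those tested, beside 57.5% of all tested genes. Slc7a11, the cystine importer that supplies glutathione synthesis, went from 67.7 ± 2.09 to 261.9 ± 1.47 CPM (log2 1.95 ± 0.04 SE, edgeR adjusted p of 9.17e-13). Gpt2, a mitochondrial alanine aminotransferase, rose by 1.37 ± 0.07 (SE), Pck2, the mitochondrial PEP carboxykinase, by 1.28 ± 0.04 and Eif4ebp1, a brake on cap-dependent translation, by 0.96 ± 0.05 on the log2 scale. The 1 that fell was the amino acid transporter Slc38a2, named after its values were seen, from 618 ± 9.58 to 458 ± 6.14 CPM (log2 -0.43). The motif was in 6 of the 21 genes of this list with a window, 28.6%, and of these Jdp2, Pck2 and Slc7a11 rose, Atf3 was not called and Fgf21 and Vldlr were not tested. In the other wider lists described below the motif was in 3 of 8 tRNA synthetases with a window, Aars, Gars and Tars, which rose. Eif2s3x, 1 of 11 genes of the eIF2 machinery, and Faf2, 1 of 12 other ERAD genes, held it and rose. Of 22 other ER folding genes 2 held it, Txndc5, which fell, and Kdelr1, which was not called. It was in 0 of 10 signalling genes, and in 3.91% of all genes' windows.

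Of 11 tRNA synthetases linked to ATF4, 8 rose, 0 fell and 3 were not called, with a median of 0.33 (0 lower at an unadjusted p under 0.05 in edgeR, and 7 higher and 0 lower by DESeq2). The 72.7% called stood beside 57.5% of all tested genes. The synthetases for serine (Sars, 0.74 ± 0.05 SE), alanine (Aars, 0.47 ± 0.04), glycine (Gars, 0.44 ± 0.04) and cysteine (Cars, 0.43 ± 0.04) had the smallest adjusted p among those named by rule. Eprs, Iars and Yars were not called, with log2 fold changes of -0.06, 0.08 and -0.04. Of 13 genes of the eIF2 and eIF2B machinery and its other upstream factors, 5 rose, 2 fell and 6 were not called (53.8% called, near the share of all tested genes). Eif2s3x, the γ subunit of eIF2, rose by 0.60 ± 0.04 (SE), and Eif2ak2, the double-stranded RNA kinase PKR, by 0.47 ± 0.05. The other genes within 5 Mb had medians of 0.37 around Eif2s3x (12 genes) and 0.31 around Eif2ak2. Eif2b2, Eif2b3 and Eif2s2 also rose, by 0.33, 0.24 and 0.21, beside 5 Mb medians of 0.1235, -0.0615 and -0.015. Those that fell were Dele1, which relays mitochondrial stress to the haem-regulated kinase (-0.44 ± 0.06 SE), and Eif2b5, the catalytic subunit of eIF2B (-0.24 ± 0.04). The other genes within 5 Mb had medians of 0.10 around Dele1 (51 genes) and -0.31 around Eif2b5 (73 genes). The part of such regional shifts in these changes was not tested.

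The ER sensors and XBP1 changed little. Ern1, which encodes the sensor IRE1α, had 40.1, 40.3 and 37.9 CPM in the GFP libraries and 41.4, 42.3 and 40.4 CPM in the libraries labelled TDP43-NLS. The groups did not overlap, yet the log2 fold change of 0.07 ± 0.05 (SE) was not called (edgeR adjusted p of 0.283). Atf6 had 162, 163 and 158 CPM against 148, 147 and 144 CPM, and fell by 0.14 ± 0.04 (SE) on the log2 scale (edgeR adjusted p of 0.00853). All 3 TDP43-NLS values of Atf6 lay below all 3 GFP values. Xbp1, the factor whose mRNA IRE1α splices, had 186, 170 and 180 CPM against 187, 198 and 196 CPM. Its groups nearly touched, and the rise of 0.11 ± 0.05 (SE) just passed the threshold (edgeR adjusted p of 0.0482). That call was lost without GFP library 2 or 3 or TDP43-NLS library 2 or 3, with adjusted p of 0.0769 to 0.157. Gene counts do not separate spliced from unspliced Xbp1 mRNA.

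The ER chaperones and folding enzymes comprised 3 that rose, 8 that fell and 3 that were not called, with a median log2 fold change of -0.11. That was 21.4% higher and 57.1% lower, beside 29.3% and 28.2% of all tested genes. Hspa5 (ENSMUSG00000026864, chromosome 2, 34661982 to 34667559) encodes BiP, the Hsp70 of the ER and the usual marker of the unfolded protein response. It had 1258, 1213 and 1285 CPM in the GFP libraries against 1125, 1159 and 1180 CPM in the libraries labelled TDP43-NLS. The groups were apart, and Hspa5 fell by 0.12 ± 0.04 (SE) on the log2 scale (edgeR adjusted p of 0.0213). That call was lost on leaving out any 1 library other than GFP 2, with adjusted p from 0.0535 (without TDP43-NLS 3) through 0.0664 (GFP 1), 0.0849 (TDP43-NLS 2) and 0.103 (GFP 3) to 0.108 (TDP43-NLS 1). Hsp90b1, which encodes GRP94, the Hsp90 of the ER, had 444, 448 and 432 CPM against 430, 468 and 461 CPM. Its groups overlapped, and its log2 fold change was 0.04 ± 0.04 (SE, edgeR adjusted p of 0.478).

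The partners of BiP went both ways. Dnajc3, which encodes the co-chaperone p58IPK, had 72.2, 75.7 and 74.8 CPM in the GFP libraries and 58.1, 56.5 and 57.2 CPM in the libraries labelled TDP43-NLS. It fell by 0.37 ± 0.05 (SE) on the log2 scale (edgeR adjusted p of 1.45e-05), the largest fall of any member. Dnajb9, which encodes ERdj4, a partner that represses IRE1, rose from 13.6 ± 1.13 to 18.3 ± 1.05 CPM (log2 0.43 ± 0.08 SE, edgeR adjusted p of 0.000651). Dnajb11, which encodes ERdj3, fell from 151 ± 2 to 126 ± 4.44 CPM (log2 -0.26). Hyou1, an exchange factor and large Hsp70, fell from 411 ± 3.65 to 332.5 ± 8.71 CPM (log2 -0.30), and Sdf2l1, a partner of ERdj3, fell from 109 ± 6.17 to 89.7 ± 0.52 CPM (log2 -0.28).

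The disulfide isomerases Pdia4 and Pdia6 rose, and their relative Pdia3 was not called. Pdia4 went from 126 ± 4.77 to 171 ± 4.94 CPM (log2 0.44 ± 0.04 SE, edgeR adjusted p of 1.84e-06) and Pdia6 from 383 ± 17.7 to 506 ± 19.2 CPM (log2 0.40 ± 0.05 SE, edgeR adjusted p of 6.45e-06). Pdia3, which serves the lectin chaperones, had 622 ± 5.46 against 622 ± 18.3 CPM. Of those lectins Calr (calreticulin) fell, from 1460 ± 34.8 to 1352 ± 13.7 CPM (log2 -0.11, edgeR adjusted p of 0.0205), and Canx (calnexin) was not called, at 802 ± 21.7 against 812.5 ± 13.8 CPM. The Calr call was lost without TDP43-NLS library 2 or 3 (edgeR adjusted p of 0.0642 and 0.0952). Creld2, an ER stress-induced protein, fell from 73.9 ± 5.44 to 64.2 ± 2.52 CPM (log2 -0.20, edgeR adjusted p of 0.0107, but 0.0556 without GFP library 1 and 0.0713 without TDP43-NLS library 1). Manf, a secreted ER stress-induced factor, had 97.8 ± 5.72 against 88.2 ± 4.04 CPM, and it was called lower although its groups overlapped (log2 -0.15, edgeR adjusted p of 0.0315, and 0.0919 to 0.146 without GFP library 1 or 3 or TDP43-NLS library 1 or 2). Manf overlaps Rbm15b and Dcaf1, with 6343 and 6164 reads over the 6 libraries.

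Several of these genes lie on chromosomes whose genes as a whole were shifted in this comparison. Among genes above an average log2 CPM of 3, the median log2 fold change was -0.32 on chromosome 9, -0.23 on chromosome 16, 0.17 on chromosome 12 and 0.09 on chromosome 17, the 4 set apart here from earlier results of these data. Chromosome 13, which holds no member, had a median of -0.13, and the other chromosomes lay between -0.07 and 0.09. Of the 18 ER folding and ERAD genes, the 4 on chromosomes 9 and 16 (Manf, Hyou1, Dnajb11 and Sdf2l1) all fell, with a median of -0.27. The 3 on chromosome 12 (Dnajb9, Pdia6 and Sel1l) all rose, with a median of 0.40. The other genes within 5 Mb had medians of 0.42 around Dnajb9 (5 genes), 0.24 around Pdia6 (17 genes) and 0.04 around Sel1l (15 genes). The 11 on other chromosomes gave 3 higher (Pdia4, Herpud1 and Edem1), 4 lower (Hspa5, Dnajc3, Calr and Creld2) and 4 not called, with a median of 0.01. The 63.6% of them called lay near the 57.5% of all tested genes. Hyou1, at -0.30, lay beside a chromosome median of -0.32, whereas Dnajc3, at -0.37, lay on chromosome 14 with a median of 0.08. The part of these chromosome-wide shifts in the members' changes was not tested. None of the 21 integrated stress response members lies on chromosome 9, 12, 16 or 17 (0 genes), and the other genes of their chromosomes had medians between -0.08 and 0.07.

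**Figure D3:**
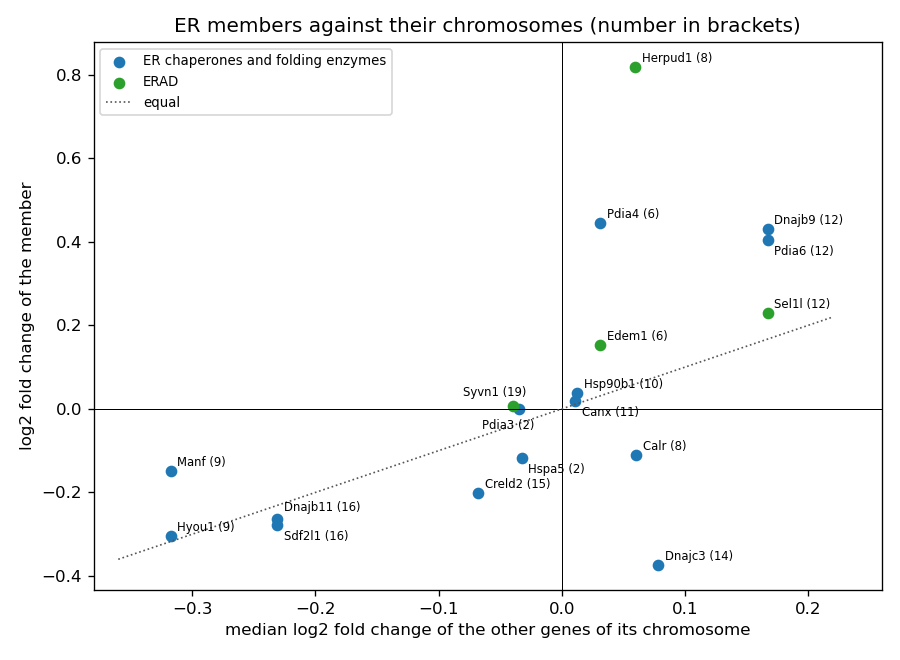
Log2 fold change of each of the 18 ER folding and ERAD genes (vertical axis) against the median of the other genes of its chromosome (horizontal axis), with the chromosome in brackets and a dotted line of equal values. Hyou1, Dnajb11 and Sdf2l1 lie close to the line at the left, and Herpud1, Pdia4 and Dnajc3 lie far from it.

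Some of the ER members' promoters hold another motif. The ER stress element, CCAAT followed after 9 bases by CCACG, is bound by ATF6 with the CCAAT-binding factor NF-Y. It was in the 250 bases before the start of 35 of 27025 genes (0.13%) and of 8 of the 36 members with a window (22.2%), searched on both strands. All 8 were among the 16 ER folding and ERAD genes with a window, 50%, and 0 of the 14 transcription factors and ATF4 targets with a window held it. No member held both this element and the ATF4 motif (0 genes). The sites of the 5 called genes with the element are shown to set 1 shared element beside unlike changes, with both parts, or their reverse complements, in capitals. They lie at chr2:34772010-34772058 (Hspa5, plus strand), chr8:84847060-84847108 (Calr, minus), chr14:118937812-118937860 (Dnajc3, plus), chr15:88819505-88819553 (Creld2, plus) and chr12:17266476-17266524 (Pdia6, plus) on GRCm38.p6, each written 5′ to 3′ on the gene's strand.
Hspa5: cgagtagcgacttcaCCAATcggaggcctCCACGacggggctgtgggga
Calr: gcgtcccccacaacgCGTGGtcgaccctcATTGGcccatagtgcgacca
Dnajc3: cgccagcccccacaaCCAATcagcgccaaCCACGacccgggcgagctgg
Creld2: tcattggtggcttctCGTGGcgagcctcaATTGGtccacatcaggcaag
Pdia6: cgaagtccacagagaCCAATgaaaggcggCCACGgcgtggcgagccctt
Of the 8 genes with the element, 1 rose (Pdia6), 4 fell (Hspa5, Dnajc3, Calr and Creld2) and 3 were not called (Hsp90b1, Canx and Syvn1). Over all tested genes 57.5% were called. Pdia6 lies on chromosome 12 beside a 5 Mb median of 0.24. The calls of Hspa5, Calr and Creld2 were each lost on leaving out some single libraries. A further motif of the unfolded protein response, TGACGTGG, was in 0.603% of all genes' windows and in 0 of the 36 members. In the wider lists it was in 3 of 22 other ER folding genes with a window (13.6%), Kdelr3, Txndc11 and Txndc5, which fell. It was also in 2 of 12 other ERAD genes (16.7%), Ube2j1, which fell, and Vcp, which was not called. The remaining wider lists held 0, and 28.2% of all tested genes were called lower. Txndc11 and Txndc5 lie on chromosomes 16 and 13, with medians of -0.23 and -0.13. Kdelr3 was little read, at 2.01 CPM in the GFP libraries. The ER stress element too was described from such genes, and a match says nothing of binding in these cells.

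In ERAD, 3 genes rose, 0 fell and 1 was not called (0 lower at an unadjusted p under 0.05 in edgeR, and 3 higher and 0 lower by DESeq2). The 75% called stood beside 57.5% of all tested genes. Herpud1 (ENSMUSG00000031770, chromosome 8, 95113066 to 95122005) encodes HERP, a membrane protein of the ubiquitin ligase complex. It had 48, 52.5 and 49.3 CPM in the GFP libraries and 87.8, 85.9 and 90.4 CPM in the libraries labelled TDP43-NLS. The groups were far apart, and Herpud1 rose by 0.82 ± 0.05 (SE) on the log2 scale (edgeR adjusted p of 1.87e-08). Its promoter, alone among the 16 ER folding and ERAD genes with a window, held the ATF4 motif shown above. That share, 6.25%, stood beside 3.91% of all genes' windows, and the part of the motif in the rise was not tested. Sel1l, the adaptor of the ligase, rose from 174 ± 3.62 to 204 ± 3.07 CPM (log2 0.23), and Edem1, which delivers misfolded glycoproteins, rose from 303 ± 7.19 to 337 ± 5.03 CPM (log2 0.15). Syvn1, the ligase HRD1 itself, had 59.65 ± 1.33 against 60 ± 2.44 CPM and was not called. It overlaps Mrpl49, with 4801 reads over the 6 libraries.

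Per length, the arms differ greatly in level. FPKM values allow genes to be compared with each other, but they carry no scaling between libraries beyond the read total. The TMM factors, which FPKM leaves out, were 1.011 to 1.015 in the GFP and 0.9855 to 0.9895 in the TDP43-NLS libraries. FPKM therefore places the TDP43-NLS libraries slightly lower against GFP than CPM does. The summed FPKM of the 14 ER chaperones and folding enzymes was 1759 ± 6.69 in the GFP and 1666 ± 28.3 in the TDP43-NLS libraries, a change of -5.34%, and Calr alone made up 29.1% of the GFP sum and 27.8% of the TDP43-NLS sum. For the 11 ATF4 targets the sum was 1044 ± 7.48 against 1226 ± 17.2 FPKM, a change of 17.4%, with Phgdh at 37.8% and 35.1% of these sums. The 5 transcription factors and regulators summed to 205 ± 7.67 against 253.2 ± 7.23 FPKM, of which Atf4 was 79.6% and 74.6%, and the 4 ERAD genes to 102.1 ± 0.51 against 124.4 ± 0.62 FPKM. The 3 kinases summed to 21.4 ± 0.42 against 22.5 ± 0.38 FPKM. Calr, at 513 FPKM in the GFP libraries, Phgdh, at 395, and Hspa5, at 299.5, were the most abundant members, and Chac1, at 1.7 FPKM, and Pycr1, at 1.14, the least abundant of those tested.

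**Figure D4:**
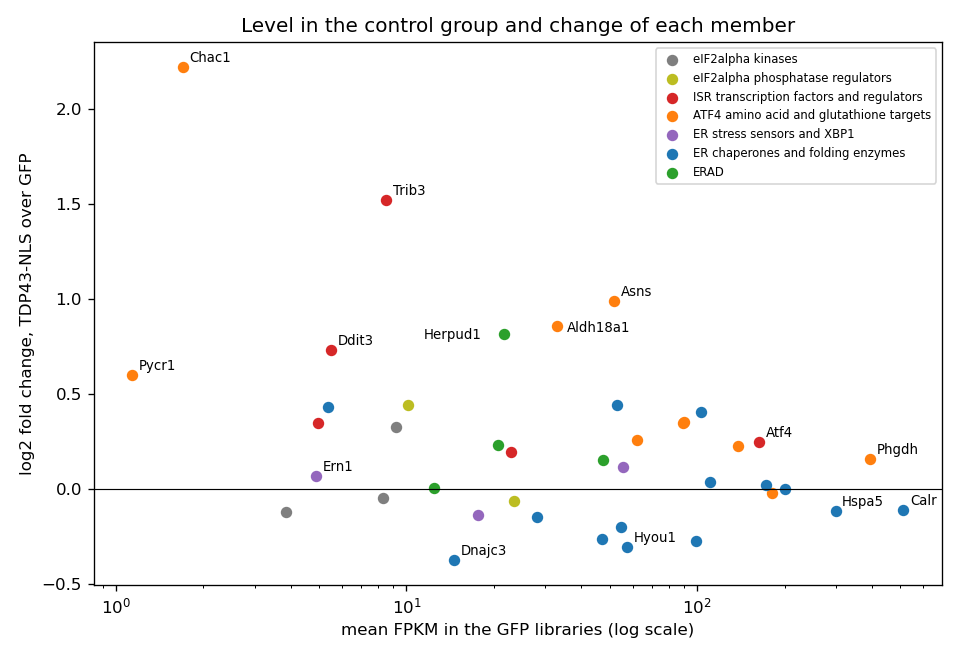
Mean FPKM of each of the 41 tested members in the 3 GFP libraries (horizontal axis, log scale) against its log2 fold change (vertical axis), coloured by role. The members with a log2 fold change above 1, Chac1 and Trib3, stood below 10 FPKM, and Calr, Phgdh and Hspa5, the most abundant, changed by less than 0.2 in size.

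Further ER genes, from textbook lists, were called about as often as all tested genes. Of 27 other genes of ER folding, oxidation and translocation, 9 rose, 7 fell and 11 were not called, at a median of 0.05 on the log2 scale. The 59.3% called lay near the 57.5% of all tested genes. Ero1a, the oxidase that recharges disulfide isomerases, went from 90.4 ± 0.66 to 220 ± 9.24 CPM (log2 1.28 ± 0.04 SE, edgeR adjusted p of 6.37e-11). Dnajb2 rose by 0.63 ± 0.08 (SE) and the reductase Dnajc10 by 0.46 ± 0.05, whereas Ssr1, a subunit of the translocon-associated complex, fell by 0.39 ± 0.04. Kdelr3, a receptor that retrieves ER proteins, fell by 2.12 ± 0.29 (SE), from 2.01 ± 0.24 to 0.46 ± 0.2 CPM, and is named after its values were seen. It overlaps Ddx17 on the other strand, with far more reads. Of the genes that fell, named here after their values were seen, Srpr and Ppib lie on chromosome 9 (median -0.32). Txndc11 lies on chromosome 16 (-0.23) and Ssr1 and Txndc5 on chromosome 13 (-0.13). Kdelr2 and Kdelr3 lie on chromosomes 5 and 15, with medians of 0.04 and -0.07. The part of these chromosome-wide shifts in the falls was not tested.

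Of 16 other ERAD genes tested, 5 rose, 4 fell and 7 were not called, so that 56.2% were called, again near the share of all tested genes. The lectin Erlec1 (0.44 ± 0.08 SE), Edem2 (0.35 ± 0.05), Selenok (0.26 ± 0.09), Os9 (0.17 ± 0.05) and Faf2 (0.14 ± 0.05) rose. The conjugating enzyme Ube2g2 (-0.38 ± 0.09 SE), Ubxn4 (-0.27 ± 0.04), Selenos (-0.18 ± 0.05) and Ube2j1 (-0.15 ± 0.06) fell. Of 11 other genes of unfolded protein response signalling, 5 rose, 2 fell and 4 were not called. The 63.6% called lay near the 57.5% of all tested genes. The ER-bound transcription factor Creb3l1 (0.80 ± 0.07 SE), the kinase Map3k5 (ASK1, 0.63 ± 0.07), the BH3-only protein gene Bcl2l11 (0.40 ± 0.05), the ER calcium regulator Tmbim6 (0.37 ± 0.04) and the protease Mbtps1 (0.12 ± 0.04), which cleaves ATF6, rose. Traf2, an adaptor for IRE1 (-0.45 ± 0.06 SE), and Rtcb, the ligase that joins spliced Xbp1 (-0.23 ± 0.06), fell.

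**Figure D5:**
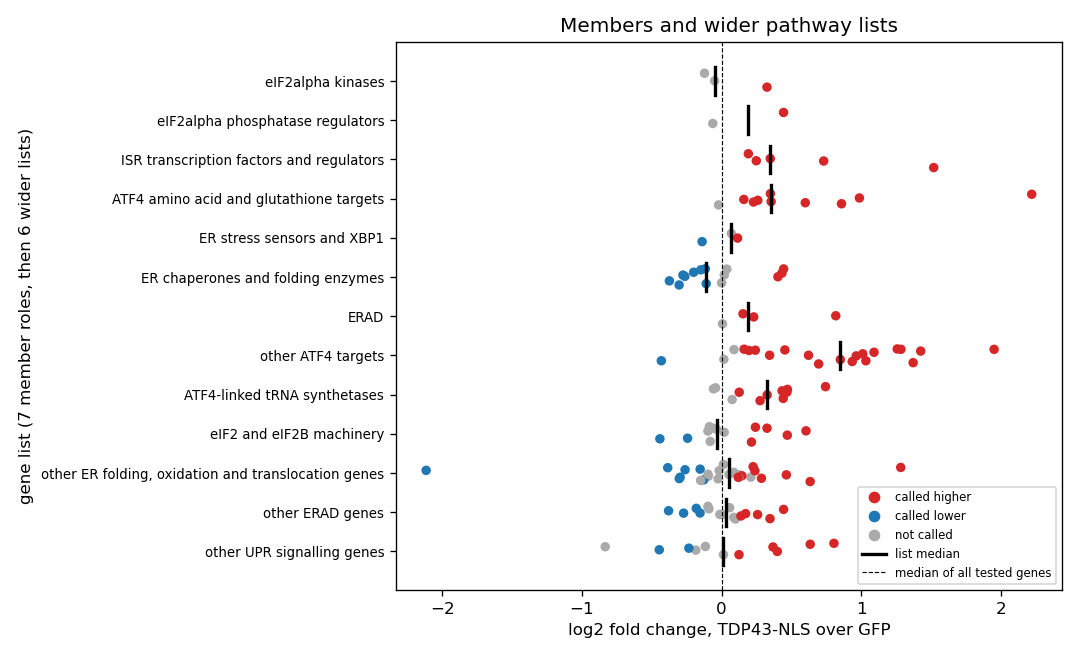
Log2 fold change of every tested gene (points, red higher, blue lower, grey not called) in the 7 member roles and 6 wider lists, with a black bar at each list's median and a dashed line at the median of all tested genes (0.00). The other ATF4 targets have the highest median of the wider lists, 0.85, and the ER folding lists straddle 0.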

How the data were processed

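RNA-seq counts per gene were analysed in 3 GFP and 3 TDP43-NLS libraries. The deposited table holds whole-number counts for 55359 genes, of which 30327 had no read. The deposited FPKM values are the authors' counts rescaled by gene length and library total (their ratio was constant between libraries within a relative 6.66e-16 over 21912 genes), not a second measurement. The build was GRCm39 and the tools were Bowtie2 2.2.3, HISAT2 2.1.0 and HTSeq 0.6.0, per the submitters' processing notes. Their roles, and the treatment of strand and of multiply matching reads, are not given in the sources used here.

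Genes passing edgeR's filter at 10 reads and 15 in total (13199) were scaled by TMM (factors 0.9855 to 1.015) and tested two-sided with the quasi-likelihood test of edgeR 4.0.16 in R 4.3.3 with group as the only term, adjusted by Benjamini-Hochberg over all of them and called under 0.05. The biological coefficient of variation, edgeR's name for the spread between libraries of a group, was 4.62%, and it may be technical here. The standard error is the log2 fold change divided by the square root of F. The steps were tested on simulated counts with planted changes, drawn independently for each gene and library at the fitted spread. The simulation held no shift shared by the genes of a chromosome, so it does not bear on such shifts. Alternatives used DESeq2 1.42.0 and limma 3.58.1 on log2(FPKM + 1). Promoters came from RefSeq (GRCm38.p6), whose coordinates were kept apart from those of GRCm39, and a protein table was not used here.

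The members, lists and tests were chosen with earlier results of these data known. The naming rule gave every library's value for 13 regulators whatever their result and for members called with a log2 fold change of at least 0.5 in size, and named up to 4 called genes of each wider list with the smallest adjusted p. Where a list had 5 or fewer calls in a direction, the others were named after their values were seen.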

Additional observations from a re-analysis of the deposited data

How the results depend on the processing

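Tested against a log2 fold change of 0.5 instead of 0, edgeR called 1221 genes higher and 744 lower, and of the members 6 higher (Chac1, Trib3, Asns, Aldh18a1, Herpud1 and Ddit3) and 0 lower. The ATF4 targets then gave 3, ER folding and ERAD 1 higher and 0 lower, the other ATF4 targets 12, tRNA synthetases 1, eIF2 machinery 1, other ER genes 2, other ERAD genes 0 and other signalling genes 1. Without the genes of chromosomes 9, 12, 16 and 17, ER folding and ERAD gave 3 higher and 4 lower, the members 5 lower and the eIF2 machinery 4, with fewer genes tested by construction. Leaving out 1 library at a time, ER folding and ERAD gave 5 to 8 lower (5 without GFP 1, TDP43-NLS 1 or TDP43-NLS 2), the members 22 to 23 higher and 6 to 9 lower, and the other ER genes 10 to 17 calls (10 without TDP43-NLS 2). The cause of these losses was not tested. DESeq2 called 21 members higher and 8 lower, without Atf5, Xbp1 and Manf (adjusted p of 0.0607), and limma on log2(FPKM + 1) with no filter lost Calr, Manf, Nupr1, Phgdh and Xbp1. The same replicate numbers did not pair the libraries (correlations of -0.016, -0.0112 and 0.00189), and with the replicate block 3848 genes were higher and 3680 lower, with 22 and 9 members. Only the Xbp1 call was lost among members under the block (adjusted p of 0.0654). Xbp1 was also lost under library totals (0.165), DESeq2 (0.132) and limma (0.204).

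Members that changed sign were uncalled ones near 0. Canx was -0.0177 with library totals, -0.0175 and -0.0176 with limma and -0.0026 to 0.0378 without 1 library. Syvn1 was -0.0302 with library totals, -0.0271 and -0.0291 with limma, and -0.0179 to 0.0434 without 1 library. Hsp90b1 was -1e-04 with limma, and Shmt2 was -0.0488 to 0.0111 without 1 library. Depth limits Cth, which was too rarely read to test, and Chac1 and Pycr1, the least read of the tested members. The median over all genes moved between -0.03 and 0.01 across settings.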
